A study of Mus musculus with 10 samples.

Results

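The genes described here encode the carriers that bring amino acids, sugars and related small molecules into mouse cells, and the question was where the transcription factor p63 sat around them in keratinocytes. They are the protein-coding autosomal genes whose symbols start with Slc1a, Slc2a, Slc3a, Slc5a, Slc6a, Slc7a, Slc38a or Slc43a and a digit. This gave 81 of the 20560 autosomal protein-coding genes in the RefSeq annotation of GRCm38.p6. Slc7a6os, which lies on the strand opposite Slc7a6 and encodes no transporter, falls under the rule by its symbol and was counted. A further 4 genes of these subfamilies are X-linked and were left out by the rule. The rule takes symbols and uses no peak.

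The series used chromatin immunoprecipitation with sequencing (ChIP-seq) in the keratinocyte lines MK1 and MK2, described as 2 similar mouse lines, with no treatment named in the labels. p63 was precipitated with the antibody 4A4, with 1 library per line. Per the labels, IDR (irreproducible discovery rate) was run on both p63 libraries together. This gave 1 joint list of 8451 peaks on mm10, which holds positions and no heights. Read depth is therefore unknown, the 2 lines cannot be compared, and every value below is a description of that 1 list with no test. Binding data hold no expression, so the keratinocyte label was not checked against markers here.

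p63 is a relative of p53 and a central regulator of the basal layer of stratified epithelia. Membrane carriers of the solute carrier (SLC) families move nutrients by different means. GLUT carriers (Slc2a) let sugars pass down their gradient, while the Slc1a, Slc5a, Slc6a and Slc38a families mostly couple uptake to sodium. Most Slc7a proteins are light chains that reach the cell surface only when joined to a heavy chain from the Slc3a family. Dividing basal keratinocytes take up glucose and essential amino acids to grow, and the mTORC1 kinase complex senses the amino acids.

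A peak was counted for a gene when its midpoint lay inside the gene or within 25 kb of either end. A total of 30 of the 81 transporter genes (37.0%, 95% Wilson interval 27.3 to 47.9) had at least 1 peak, against 30.8% of all autosomal protein-coding genes. Transporter genes are long, with a median of 34.9 kb against 17.6 kb for all genes, and a longer gene has more room for a peak. When all genes were split by length into 5 classes of equal number, genes of the same classes had a peak in 35.5% of cases, so the transporters as a whole lay close to the background. They had 48 peaks, no 2 of them sharing one, which is 0.579% of the 8294 autosomal peaks. The median was 0 peaks per gene, as it was over all genes. Intervals here and below cover counting error only, and neighbouring genes can share a peak.

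The subfamilies differed in their shares. Slc7a, which holds the light chains and other carriers, and Slc38a were at the upper end, each at 60.0%, and the Slc6a carriers were at the lower end with 15.8%. For Slc7a this was 9 of 15 genes (interval 35.7 to 80.2), for Slc38a 6 of 10 (31.3 to 83.2) and for Slc6a 3 of 19 (5.52 to 37.6). The interval of Slc6a overlaps both others, and none of these differences was tested. These counts depended on the distance allowed. Within 5 kb of a gene, Slc7a had 4 genes with a peak, Slc38a 3 and Slc6a 3, against 18.5% of all genes. Inside genes only, they were 4, 2 and 2, against 13.9%. Within 50 kb they were 11, 8 and 7, against 42.2%. Both genes of Slc3a had a peak. The remaining shares were 4 of 12 for Slc2a (33.3%), 1 of 3 for Slc43a (33.3%), 2 of 7 for Slc1a (28.6%) and 3 of 13 for Slc5a (23.1%). Genes of the same length classes as each subfamily had a peak in 31.5% to 38.5% of cases. For Slc7a, Slc38a and Slc6a this was 36.4%, 36.8% and 34.7%, each within the interval of the subfamily.

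**Figure D1:**
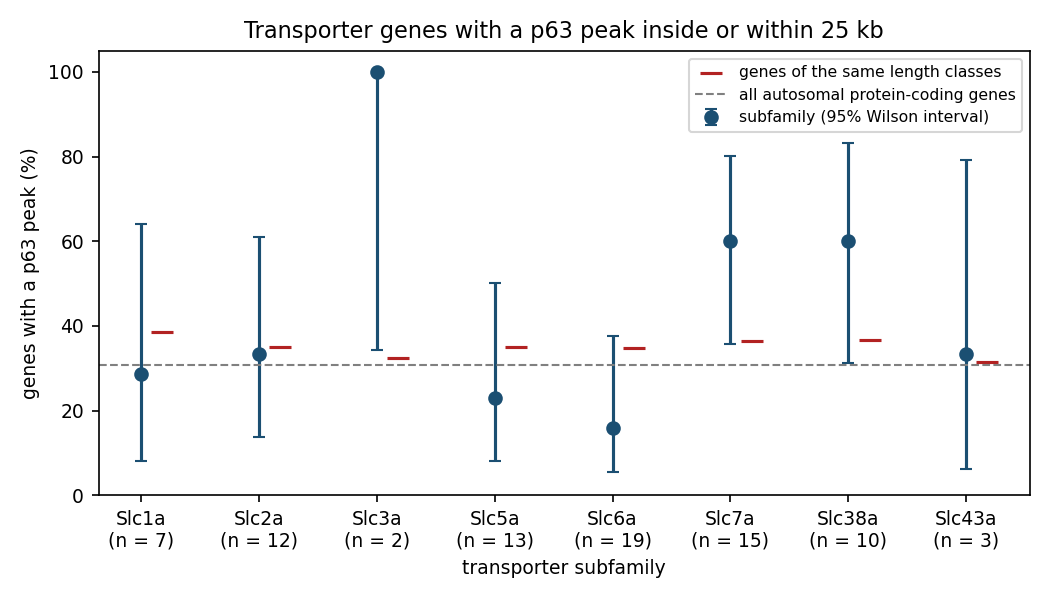
Share of genes with a p63 peak inside or within 25 kb, in percent, for each of the 8 transporter subfamilies, with 95% Wilson intervals as bars. Short red lines give the share among genes of the same length classes and the dashed line the 30.8% of all autosomal protein-coding genes. Slc7a and Slc38a stand at 60.0% and Slc6a at 15.8%, with wide intervals throughout.

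Under the 25 kb rule the heavy chain gene Slc3a2 had more peaks than any other member. It encodes 4F2hc (CD98), the surface partner of several Slc7a light chains, which also binds integrins. Slc3a2 had 6 peaks, and 106 of all 20560 autosomal protein-coding genes (0.516%) had as many or more. The gene spans 8706882 to 8723369 on chromosome 19 and lies on the minus strand, so its end is at the lower coordinate. Its peaks were at 8698898 to 8699167, 8705110 to 8705278, 8705829 to 8706055, 8710149 to 8710414, 8721953 to 8722236 and 8741111 to 8741431. The first 5 lay within 23.3 kb of each other and had Slc3a2 as their nearest protein-coding gene. Of these, 3 were beyond the gene's end, at 7.85, 1.69 and 0.940 kb, and 2 were inside it.

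The widths of the Slc3a2 peaks were 270, 169, 227, 266, 284 and 321 bp, against a median of 305 bp over all peaks. When only peaks at least as wide as that median were counted, Slc3a2 had 1, while Slc5a10, Slc6a6, Slc38a6, Slc7a1 and Slc7a7 each had 2. When peaks within 10 kb were joined, Slc3a2 had 3, as did Slc38a6. Inside genes only, Slc3a2 had 2 and Slc5a10 had 4. The rank of Slc3a2 thus depended on how peaks were counted. The gene body of Slc3a2 was 16.5 kb long, shorter than the median of the members. Slc3a1, which encodes the other heavy chain rBAT, had 1 peak, 16.1 kb beyond its end, and the nearest gene of that peak was Prepl.

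No peak overlapped a start window of a transporter gene. Such a window holds 250 bases before and 50 after a RefSeq start, and 61 of the 81 members had at least 1, with 84 windows in all. Over the whole list, 307 of 8451 peaks overlapped a start window of any gene, as did 2 of the 48 peaks at transporter genes. The share of all genes with an overlapped start window was not counted, so the lack of one at transporter genes has no background. At Slc3a2 the listed start lay within the annotated gene, between the 2 peaks inside it. It was 3.62 kb upstream of one and 8.20 kb downstream of the other. The latter peak lay 1.275 kb from the upper-coordinate end of the gene, which is its start side. The sixth Slc3a2 peak, 17.9 kb beyond the gene, overlapped 258 of the 300 bases of a start window of Stx5a, which encodes a syntaxin of Golgi transport. Its midpoint was 153 bp from Stx5a and 46 bp from 1700092M07Rik, its nearest gene. Of the 48 peaks, 1 other overlapped a start window, that of 5033421B08Rik, at the Slc7a15 peak nearest to Rhob. The first sequence shown is the 250 bases before the listed Slc3a2 start, at chr19:8713898-8714147 on the minus strand. No peak overlapped this listed start of the member with most peaks. The second is the 250 bases before the Stx5a start, at chr19:8741174-8741423 on the plus strand. It is the only stretch of a Slc3a2 peak whose letters were at hand. Both are from RefSeq on GRCm38.p6, written 5′ to 3′, with the 4 letters CATG, a core of the p53 family half-site, in capitals.
Slc3a2: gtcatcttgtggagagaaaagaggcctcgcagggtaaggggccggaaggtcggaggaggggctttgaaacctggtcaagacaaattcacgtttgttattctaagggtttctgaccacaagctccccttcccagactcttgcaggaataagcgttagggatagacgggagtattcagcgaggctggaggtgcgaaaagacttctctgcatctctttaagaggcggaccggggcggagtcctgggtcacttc
Stx5a: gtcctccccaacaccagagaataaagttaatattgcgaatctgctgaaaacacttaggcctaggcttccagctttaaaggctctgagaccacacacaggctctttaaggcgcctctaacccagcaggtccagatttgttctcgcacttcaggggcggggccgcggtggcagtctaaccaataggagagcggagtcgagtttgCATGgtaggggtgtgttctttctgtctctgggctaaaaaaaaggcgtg
The Stx5a stretch held CATG once and the Slc3a2 stretch did not hold it. Of all 32851 RefSeq start windows, 53.9% held CATG in the same 250 bases. Paired cores with starts 10 bases apart, as in a full p53 family site, were also searched. Neither stretch held CATGNNNNNNCATG, found in 0.490% of all windows, nor the loose form CNNGNNNNNNCNNG, found in 63.5%. Each of these patterns reads the same on both strands, and both the loose form and the single core also count wherever the strict pair occurs.

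Of the 6 light chain genes whose proteins pair with 4F2hc, 5 had a peak (83.3%, interval 43.6 to 97.0), against 30.8% of all genes and 37.5% of genes of the same length classes. This group was put together after the counts were seen, so its share supports nothing. Slc7a11 encodes xCT, which imports cystine for glutathione, and had 2 peaks at 50456105 to 50456870 and 50457643 to 50457866 on chromosome 3. They lay 0.772 kb apart inside the gene, and the first was 766 bp wide, the widest but 1 of the 48. Both were upstream of the listed Slc7a11 start, by 12.9 and 14.1 kb, since the annotated gene extends beyond that start. No other protein-coding gene was in reach of them.

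Slc7a8, which encodes LAT2, a carrier of neutral amino acids, had 1 peak inside the gene, 13.4 kb from its start. Slc7a5 encodes LAT1, which brings in leucine and other essential amino acids, and had 1 peak 19.7 kb away at 121861267 to 121861596 on chromosome 8. The nearest gene of that peak was Gm42048. Slc7a7 (y+LAT1) had 2 peaks on its start side, at 54433962 to 54434601 and 54435247 to 54435626 on chromosome 14, 14.2 and 15.4 kb away. Their nearest gene was Mmp14, which encodes a matrix metalloproteinase. Slc7a6 (y+LAT2) had 1 peak 14.5 kb away, nearest to Pla2g15. Slc7a10 (Asc-1) had none within 25 kb, and its nearest peak was 63.1 kb away. Thus at 3 of the 5 genes with a peak, another gene was closer to every peak.

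Slc7a1, which encodes CAT-1, the main importer of arginine and lysine in many cells, is a cationic carrier that needs no heavy chain. It had 3 peaks deep inside its 72.5 kb body at 148359601 to 148359848, 148373100 to 148373463 and 148374286 to 148374640 on chromosome 5. The last pair lay 0.822 kb apart. No other protein-coding gene was in reach of these 3 peaks. Slc7a15 had 2 peaks on chromosome 12, 1 inside the gene at 8552136 to 8552436 and 1 at 8511106 to 8511522, whose nearest gene was Rhob. Slc7a14 and Slc7a4 had 1 peak each, at 5.19 and 7.996 kb. When a peak counted only for its nearest gene, 5 of the 15 Slc7a genes had one, namely Slc7a1, Slc7a8, Slc7a11, Slc7a14 and Slc7a15. Under the same rule this held for 5 of the 10 Slc38a genes, 3 of the 19 Slc6a genes and 19.8% of all genes.

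**Figure D2:**
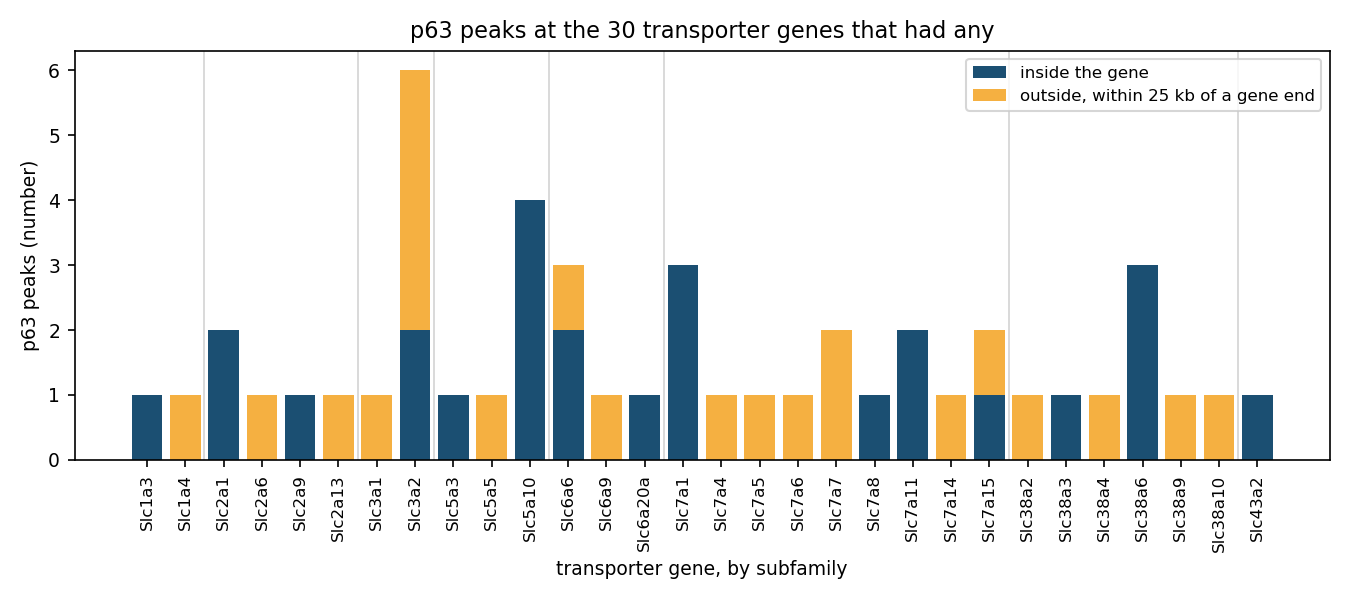
Number of p63 peaks at each of the 30 transporter genes with any, ordered by subfamily, split into peaks inside the gene and peaks outside within 25 kb of an end. Slc3a2 has 6, of which 2 are inside, Slc5a10 has 4, all inside, and 21 genes have 1.

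The Slc38a family carries glutamine, alanine and other neutral amino acids by systems A and N. Its 6 genes with a peak were Slc38a6 with 3 and Slc38a2, Slc38a3, Slc38a4, Slc38a9 and Slc38a10 with 1 each. The Slc38a6 peaks were spread along its 75.3 kb body at 73294969 to 73295592, 73330136 to 73330409 and 73353337 to 73353669 on chromosome 12. The first, 624 bp wide, lay 8.43 kb into the gene from its listed start. Slc38a2 encodes SNAT2, which cells raise when amino acids run short. Its peak at 96704363 to 96704588 on chromosome 15 was 4.75 kb upstream of the start, with no other protein-coding gene in reach. Slc38a9 encodes the lysosomal arginine sensor of mTORC1, and its peak was 19.6 kb beyond the gene. The peak of Slc38a4 (SNAT4), 770 bp wide and 19.5 kb beyond the gene, was the widest at any transporter. The peak of Slc38a3 (SNAT3) was inside the gene, while that of Slc38a10 was closer to Tepsin. Slc38a1, Slc38a7, Slc38a8 and Slc38a11 had none, with their nearest peaks 61.0, 40.4, 39.3 and 76.2 kb away.

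Among sugar carriers, the 2 genes with more than 1 peak had them all inside. In the class of hexose and other sugar carriers drawn from Slc2a and Slc5a, 3 of 16 genes had a peak (18.8%, interval 6.59 to 43.01). Both the 30.8% of all genes and the 34.0% of genes of the same length classes lie within that interval. The class had 0.534 peaks per 100 kb searched, against 0.529 over all genes. Slc2a1 encodes GLUT1, the carrier of basal glucose uptake. Its 2 peaks were at 119120179 to 119120463 and 119125473 to 119125859 on chromosome 4, 11.6 and 16.9 kb downstream of its start, and no other protein-coding gene was in reach. Slc5a10, which encodes SGLT5, a sodium-coupled carrier best known in kidney, had 4 peaks, at 61675445 to 61675818, 61676471 to 61676776, 61687676 to 61687955 and 61694023 to 61694270 on chromosome 11. All 4 were also in reach of Grap and Fam83g, and the last pair lay inside Fam83g as well, so they cannot be given to Slc5a10 alone. The 1 peak of Slc2a6 was 13.3 kb away and nearest to Adamts13. Slc2a2, Slc2a3, Slc2a4 and Slc2a5, the genes of GLUT2, GLUT3, GLUT4 and the fructose carrier GLUT5, had no peak, nor had Slc5a1 and Slc5a2, the genes of the sodium-glucose carriers SGLT1 and SGLT2. The nearest peak of Slc5a9 was 2054 kb away, the longest distance of any transporter gene.

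**Figure D3:**
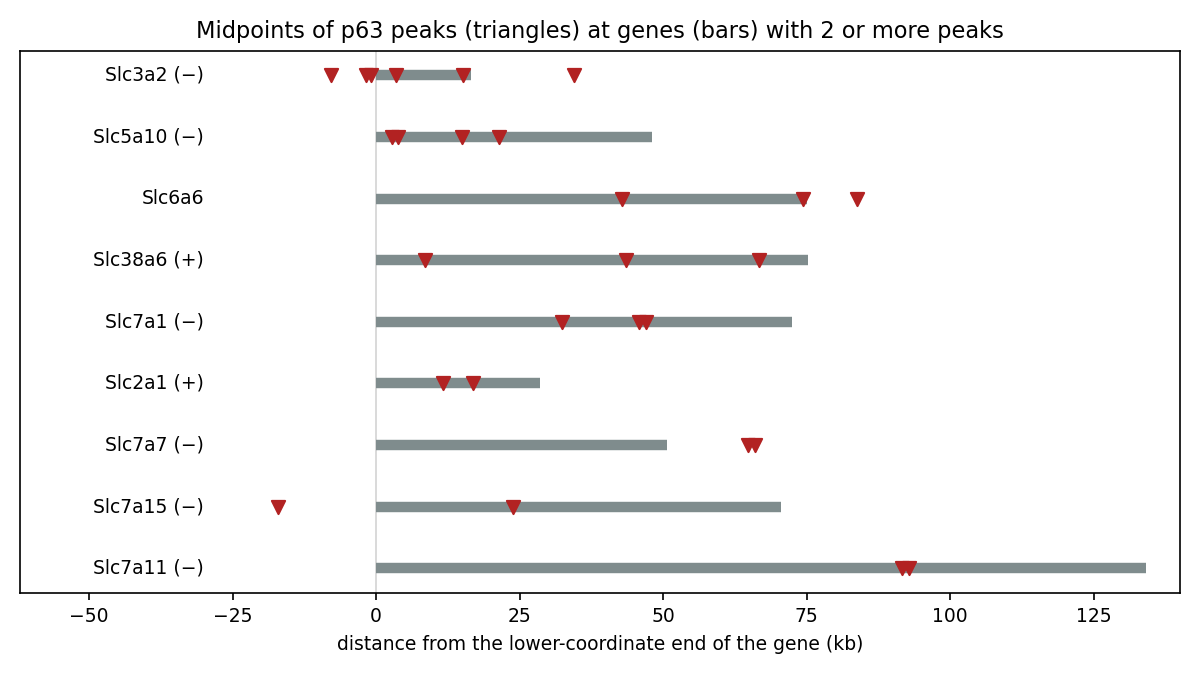
Position of p63 peak midpoints (triangles) relative to the 9 transporter genes with at least 2 peaks (bars), in kb from the end of the gene with the lower coordinate. The strand is given after each symbol where it was known. Peaks of Slc7a1, Slc38a6, Slc2a1, Slc5a10 and Slc7a11 all lie inside the genes, and 4 of the 6 at Slc3a2 lie outside.

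Carriers of osmolytes, which cells take up against drying and salt, had a peak in 3 of 5 cases (60.0%, interval 23.1 to 88.2), against 39.8% of genes of the same length classes. Slc6a6, the gene of the taurine carrier TauT, had 3 peaks on chromosome 6. They were at 91726719 to 91727086 and 91758371 to 91758562 inside the gene and at 91767669 to 91768008 beyond it. The second was 0.597 kb from a gene end, and Slc6a6 and Slc3a2 were the only members with a peak midpoint within 1 kb of an end. The share of all genes with a midpoint that close was not counted, so this has no background. The third Slc6a6 peak was nearest to Grip2. Slc5a3, the gene of the sodium-coupled myo-inositol carrier, had 1 peak inside, where it overlaps Mrps6, and Slc2a13, the gene of the proton-coupled myo-inositol carrier, had 1 that was closer to CN725425.

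Neurotransmitter carriers were near peaks in 1 of 9 cases (11.1%, interval 1.99 to 43.5), the lowest share of the substrate classes. Genes of the same length classes had one in 35.8% of cases, which lies within that interval. That gene was Slc6a9, which encodes the glycine carrier GlyT1, with a peak 3.12 kb upstream of its first listed start. The genes for the carriers of noradrenaline (Slc6a2), dopamine (Slc6a3) and serotonin (Slc6a4) had none. The dopamine carrier gene was among the nearest misses of the 25 kb rule, with its closest peak at 27.4 kb. The closest miss was Slc6a20b at 26.6 kb, and the farthest members still inside were Slc38a9 at 19.6 kb and Slc7a5 at 19.7 kb. Slc6a20a, the neighbour of Slc6a20b, encodes a proline carrier and had 1 peak inside.

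Carriers of acidic and neutral amino acids in Slc1a and Slc43a had 1 peak each where they had any. In Slc1a these were Slc1a3, the gene of the glutamate carrier GLAST, with a peak inside, and Slc1a4, the gene of the alanine, serine and cysteine carrier ASCT1, with a 457 bp peak 14.9 kb upstream. Slc1a5 encodes ASCT2, a major route of glutamine uptake, and had none, with the nearest peak 45.9 kb away. Of the leucine carriers in Slc43a, Slc43a2 had 1 peak inside and Slc43a1 had none. By substrate class, neutral amino acid carriers with their heavy chain had a peak in 6 of 12 cases (50.0%, interval 25.4 to 74.6), cationic carriers in 4 of 6 (66.7%, interval 30.0 to 90.3), and carriers of glutamate, aspartate and cystine in 2 of 6 (33.3%, interval 9.68 to 70.0). Genes of the same length classes had one in 33.7%, 37.5% and 41.5% of cases, each within the interval of its class. Among the cationic carriers, only Slc7a1 was the nearest gene of its peaks. Members in no named class had a peak in 5 of 17 cases (29.4%, interval 13.3 to 53.1). The genes with a peak not named so far were Slc2a9, which encodes a urate carrier, and Slc5a5, which encodes the iodide carrier of the thyroid. The Slc5a5 peak at 70879989 to 70880166 on chromosome 8 lay 2.81 kb beyond the gene, and 3 other genes were in reach.

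The position of the 48 peaks relative to the genes was then described. Inside the genes lay 26 peaks (54.2%), at 15 of the members (18.5% of 81, against 13.9% of all genes with a peak inside and 19.2% of those in the same length classes). Over all pairs of an autosomal gene and a peak in reach, 42.0% were inside, a share not matched for gene length. A further 1 peak was within 1 kb of an end (2.08%, against 3.54% of all pairs). At 1 to 5 kb there were 4 (8.33%, against 9.83%), and at 5 to 25 kb 17 (35.4%, against 44.6%). Of the 22 peaks outside, 7 were on the start side of the gene, 12 on the end side, and 3 were at genes with no strand in the table used. For 36 peaks the transporter gene was the nearest protein-coding gene, and this held for 22 members (27.2%, against 19.8% of all genes, not matched for length). Genes tied for nearest were all counted. Such ties were found between Slc5a10 and Fam83g, and at the 1 peak of Slc5a3, which tied with Mrps6. The other 12 peaks were closer to another gene, and 8 members with a peak, among them Slc7a5, Slc7a6 and Slc7a7, were never the nearest. In all, 27 of the 48 peaks had another protein-coding gene in reach. Neither this count nor the split by side was made over all genes. Proximity does not show which gene a peak acts on.

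Transporter genes with a peak were longer than those without, as were genes in general. Members with a peak had a median length of 47.5 kb and those without one 32.6 kb, and over all genes the medians were 26.5 and 14.6 kb. In the longest length class (above 58.1 kb), 12 of 21 transporters had a peak (57.1%, against 44.6% of all genes in it), and in the middle class 3 of 20 (15.0%, against 29.6%). At least 2 peaks were found at 9 members (11.1%), against 12.1% of all genes. The width of the 48 peaks had a median of 293 bp and quartiles of 239 and 365 bp, against 305, 242 and 392 bp for the whole list.

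**Figure D4:**
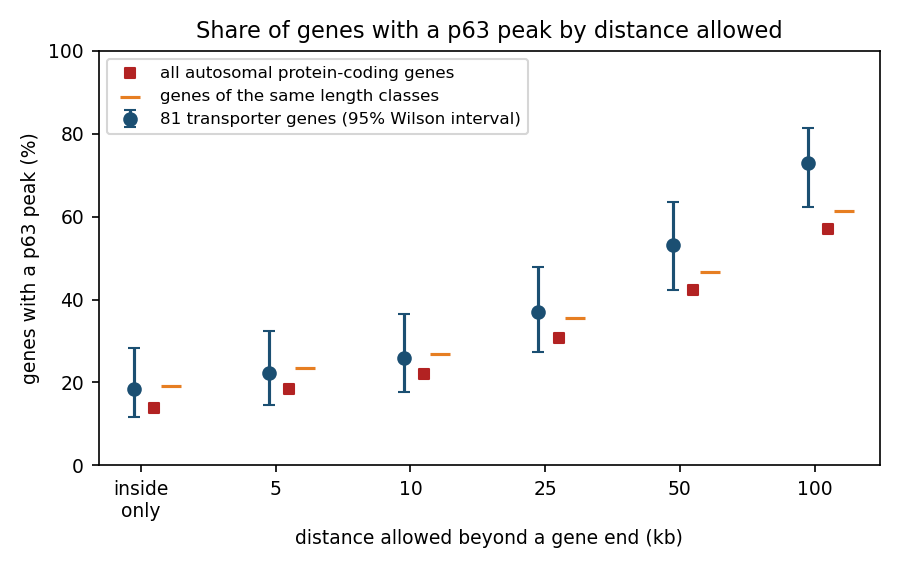
Share of genes with a p63 peak, in percent, as the distance allowed beyond a gene end grows from none to 100 kb, for the 81 transporter genes with 95% Wilson intervals, for all autosomal protein-coding genes, and for genes of the same length classes. The transporter share goes from 18.5% to 72.8% and the share of all genes from 13.9% to 57.1%.

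In wider windows the transporter share lay further above that of all genes, a difference that was not tested. Within 50 kb 53.1% of them had a peak (interval 42.3 to 63.6), against 42.2% of all genes and 46.5% of genes of the same length classes. Within 100 kb this was 72.8% (interval 62.3 to 81.3), against 57.1% and 61.5%. Inside the genes and up to 10 kb from them, the transporter share was below that of genes of the same length, with 25.9% against 26.96% at 10 kb.

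Genes of related function were counted in the same way. Among 18 genes of other transporter families for amino acids, peptides and sugars, 7 had a peak (38.9%, interval 20.3 to 61.4), against the 30.8% of all genes. Slc17a8, which encodes a vesicular glutamate carrier, had 4, and Slc16a10, which encodes a carrier of aromatic amino acids, had 1. The other Slc17a genes listed, Slc17a6 and Slc17a7, had none, with their nearest peaks 667 and 112 kb away. Among 28 genes of amino acid sensing by mTORC1 and the stress response, 15 had a peak (53.6%, interval 35.8 to 70.5), also against 30.8%. Both lists were chosen with earlier results of these data known, and neither was matched for gene length. Their shares therefore support nothing about these genes as a group. Sesn1 and Sesn2, which encode sestrins and are targets of p53, had 3 and 2. The remaining sestrin gene, Sesn3, had none, its nearest peak being 195 kb away. Ddit4, which encodes an inhibitor of mTORC1, had 2, with the nearest 1.16 kb from the gene. Rheb, which encodes the GTPase that switches mTORC1 on, also had 2. Mtor itself had none, its nearest peak being 46.6 kb away, and Atf4, the gene of the transcription factor of the amino acid stress response, had none within 92.9 kb.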

How the data were processed

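The 2 p63 ChIP-seq libraries, 1 each from MK1 and MK2, gave 1 list of peak positions in bp, deposited by the authors. Per the labels, IDR (irreproducible discovery rate) was run on both libraries together. Per the submitters' processing notes, Bowtie 1.1.1, SAMtools 1.1 and mm10 were used. Peak caller and thresholds, being not given in the sources used here, remain unknown. The list has no heights, counts or values per line, so depth and precision per sample are unknown and no test over samples was possible. The other 8 libraries of the series were not analysed here.

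Peak starts, counted from 0 in the file, were written 1-based. The RefSeq gene table was that of GRCm38.p6, which shares its chromosome coordinates with mm10. Rows ending below 3 Mb, which carry scaffold positions, were left out. Strands and start windows came from RefSeq promoter sequences, matched by gene ID for 61 of 81 members. A peak was placed by its midpoint. Genes were split into 5 classes of equal number by length. A same-length share is the mean share of those classes, weighted by the members in them. The assignment of peaks was tested on simulated data. Python 3.11.15, pandas 2.3.3, numpy 2.4.6 and statsmodels 0.14.6 were used.

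Every member with a peak was named. Positions were given for the 10 members with most peaks, with ties going to the peak nearest a gene end, for members with a peak within 1 kb of an end, and for Slc2a1, Slc1a5, Slc7a5, Slc3a2, Slc7a11 and Slc38a2. The members and lists were chosen with earlier results of these data known. Alternatives were other distances, any overlap, nearest genes only, joined peaks, wide peaks only, gene ends only and, chosen after seeing the data, leaving out Slc7a6os.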

Additional observations from a re-analysis of the deposited data

How the results depend on the processing

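The transporter share stayed above that of all genes, not matched for length, under each of the 11 alternatives, while the counts moved. Against genes of the same length classes the direction changed. The transporter share was lower inside genes only, within 5 kb and within 10 kb. It was higher within 50 kb, within 100 kb and without Slc7a6os. The remaining alternatives were not matched for length, so a stable excess over genes of the same length was not shown. Inside genes only, 15 members had 26 peaks, the related lists had 12 genes with a peak, and the share of all genes was 13.9%. Within 5 kb 18 members had 31 peaks (all genes 18.5%), and within 10 kb all genes stood at 22.1%. Within 50 kb there were 80 peaks (all genes 42.2%), and within 100 kb 59 members had 143 peaks (all genes 57.1%). With only peaks at least as wide as the median, 18 members had 23 peaks, the 10 genes with most peaks had 14 in place of 28, the related lists had 7 genes and all genes stood at 19.0%. Joining peaks within 10 kb left those 10 genes with 18. Counting nearest genes only, or peaks within 25 kb of a gene end only, gave 19.8% and 28.4% of all genes. Any overlap in place of midpoints, and leaving out Slc7a6os (30 of 80, 37.5%), moved no count of members or peaks by over 1.5 times. No paired analysis was possible because the list joins both lines, and neither line could be left out for the same reason. Depth is unknown, so a gene without a peak may have had too few reads.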
